A study of Mus musculus with 8 samples.

Results

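The genes described here are 10 guidance genes, Slit1, Slit2, Slit3, Robo1, Robo2, Sema3a, Sema3c, Sema3f, Nrp1 and Nrp2, out of 16593 genes named on a mouse expression array. They were chosen by their family, with the higher Slit2 values of this same knockout comparison already known, so their knockout and control values are given as a description, without a test, and support nothing by themselves. All 10 had a probe, 15 probes in all. Of these, 8 probes for 6 genes reached a detection p-value below 0.05, called above background here, on 4 or more of the 8 arrays and were kept for the fit across all probes. The study compared primary hepatic stellate cells, liver pericytes that store vitamin A, from mice without the interleukin-15 receptor alpha chain (labelled IL15Ra-knockout, 4 samples) with those of wild-type mice (labelled control, 4 samples). Its title asks whether the receptor governs the fibrogenic potential of these cells during chronic liver injury. All mice were of the B6/129 strain, were bought at 6 weeks of age and are labelled female. No injury or drug is named for the mice of either group. In both groups the liver was digested with pronase and collagenase, cells were taken from a Percoll gradient and kept in medium with serum, and RNA came from passage 0. The knockout is not restricted to a cell type in the labels, which do not say that the wild-type mice were littermates or whether each of the 4 samples per group is a different animal. P-values here thus reflect variation among the deposited samples alone, and that variation may be technical.

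Slits are secreted proteins that bind Robo receptors, and they steer axons, migrating cells and growing vessels, mostly by repulsion. Class 3 semaphorins are secreted too and act through complexes of neuropilins, which bind the ligand, and plexins, which carry the signal inward. Neuropilins also bind vascular endothelial growth factors (VEGFs). In the liver, stellate cells lie along the sinusoids beside the endothelium, and both pathways have been studied there in connection with cell migration, vessel growth and fibrosis.

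Each array gave a signal for 25697 probes, of which 9433 were kept. The number above background ranged from 6760 to 10516 per array, and was lowest on control 3 (6760), knockout 1 (7765) and knockout 4 (7830), which stood apart from the other arrays on a first principal component holding 78.2% of the variance. None of the 4 Il15ra probes was above background on any array, so the targeted gene checks no label. Probes for 3 Y-linked genes were above background on all 8 arrays and those for Xist on none, which goes against the label female, alike in both groups. Of 11 stellate cell markers 10 had a probe, and 6 of them (Lrat, Hand2, Rgs5, Ngfr, Gfap and Lhx2) were above background on no array, while Reln, Des, Pdgfrb and Ecm1 were kept. Values are for whole cultures, in which fewer cells of a type and less RNA per cell cannot be told apart.

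The genes fall into 2 ligand and receptor systems, and promoter windows are shown for 3 members of the Slit system. Slit2 is the ligand whose values lay apart in the groups, Slit3 is its paralogue below background on all arrays, and Robo1 is the receptor that was measured. Each window runs from 250 bases before to 50 after a start site that RefSeq lists for GRCm38.p6, and is read on the plus strand. Capitals mark GGGCGG (the GC box, bound by Sp1-type factors) and TATAAA (the TATA box), on either strand. The windows are chr5:47982905-47983204 for Slit2, chr11:35121206-35121505 for Slit3 and chr16:72662899-72663198 for Robo1. A probe on these arrays does not tell which start site a transcript used.
Slit2: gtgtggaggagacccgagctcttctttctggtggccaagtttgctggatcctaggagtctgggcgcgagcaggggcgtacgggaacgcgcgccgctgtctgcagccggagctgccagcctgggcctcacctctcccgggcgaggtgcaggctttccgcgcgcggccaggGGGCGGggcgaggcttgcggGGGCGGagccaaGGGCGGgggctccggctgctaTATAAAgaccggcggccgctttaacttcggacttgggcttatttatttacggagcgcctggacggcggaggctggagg
Slit3: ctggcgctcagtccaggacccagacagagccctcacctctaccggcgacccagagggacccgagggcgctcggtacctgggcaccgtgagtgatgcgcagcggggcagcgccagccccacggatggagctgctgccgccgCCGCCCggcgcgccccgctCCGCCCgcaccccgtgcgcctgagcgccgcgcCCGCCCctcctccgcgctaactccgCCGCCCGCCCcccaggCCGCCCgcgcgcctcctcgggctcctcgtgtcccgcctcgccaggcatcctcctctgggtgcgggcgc
Robo1: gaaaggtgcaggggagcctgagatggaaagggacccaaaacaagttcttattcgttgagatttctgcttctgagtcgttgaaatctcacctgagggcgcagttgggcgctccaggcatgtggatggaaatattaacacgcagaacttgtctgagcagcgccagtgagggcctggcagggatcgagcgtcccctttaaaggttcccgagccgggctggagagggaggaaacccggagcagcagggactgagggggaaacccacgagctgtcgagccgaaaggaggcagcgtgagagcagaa

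The Slit2 window held 3 GC boxes and a TATA box that begins at -28 from the start site, and the Slit3 window held 6 GC boxes, a pair of them overlapping, and no TATA box. The Robo1 window held neither motif. Of all 32851 windows in the table, 35.7% held a GC box and 13.6% a TATA box. The pair CG occurred 30 times in the Slit2 window, 41 times in that of Slit3 and 15 times in that of Robo1, against a median of 7 over all windows. RefSeq windows were at hand for 8 of the 10 genes, 10 windows in all. None of the 10 held CCAAT, the AP-1 motif TGANTCA or the STAT motif TTCNNNGAA on either strand, which 37.4%, 7.81% and 8.3% of all windows held. These matches describe the letters of the windows and say nothing of binding.

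Among the Slit ligands, Slit2 had higher values in knockout than in control cultures, and Slit1 and Slit3 were at or below background on most arrays. Normalised values are log2 signals after background correction and quantile normalisation. On knockout 1 to 4, Slit2 lay at 7.28, 7.99, 7.77 and 7.71, and on control 1 to 4 at 6.07, 5.28, 4.90 and 5.26. The lowest knockout value was thus above the highest control value. The means were 7.69 ± 0.30 in knockout and 5.37 ± 0.49 in control cultures (SD, n = 4 each), a difference of 2.31 on the log2 scale, or 4.97-fold, with a 95% interval of 1.57 to 3.06 from the limma fit. Slit2 was above background on all 4 knockout arrays and on control 1 alone among the controls. The knockout arrays alone thus took its probe past the filter, and the fold rests mostly on control values not above background.

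Of the 8 kept probes of these genes, 1, that of Slit2, had an adjusted p under 0.05 in the limma fit over all kept probes, in which 0.53% of probes passed and 0.233% passed as higher in the knockout. It was also the only one of the 8 whose normalised values did not overlap between the groups in this direction, against 3.12% of all kept probes. Slit2 was picked with this contrast known, so nothing is read from either count. The call of Slit2 was lost when knockout 2, knockout 3, knockout 4, control 2 or control 4 was left out, with differences between 2.21 and 2.31 and limma adjusted p-values between 0.0607 and 0.130, with median scaling (2.01, adjusted p = 0.124) and with no normalisation between arrays (1.71, adjusted p = 0.192). The call was also lost with the replicate number as a block (2.31, limma adjusted p = 0.363). A filter asking for a detection p below 0.01 on all 8 arrays dropped the Slit2 probe. The probe was dim enough for the scale to matter. In the authors' normalised values, which keep the background, Slit2 had a mean of 313 ± 40.6 in knockout and 141 ± 20.4 in control arrays (SD, n = 4 each), a ratio of 2.21. In the deposited signals before normalisation, the knockout values of 170.7, 365.8, 310.8 and 244.9 and the control values of 175.7, 133.8, 134.2 and 169.9 overlapped, since knockout 1 lay below control 1.

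**Figure D1:**
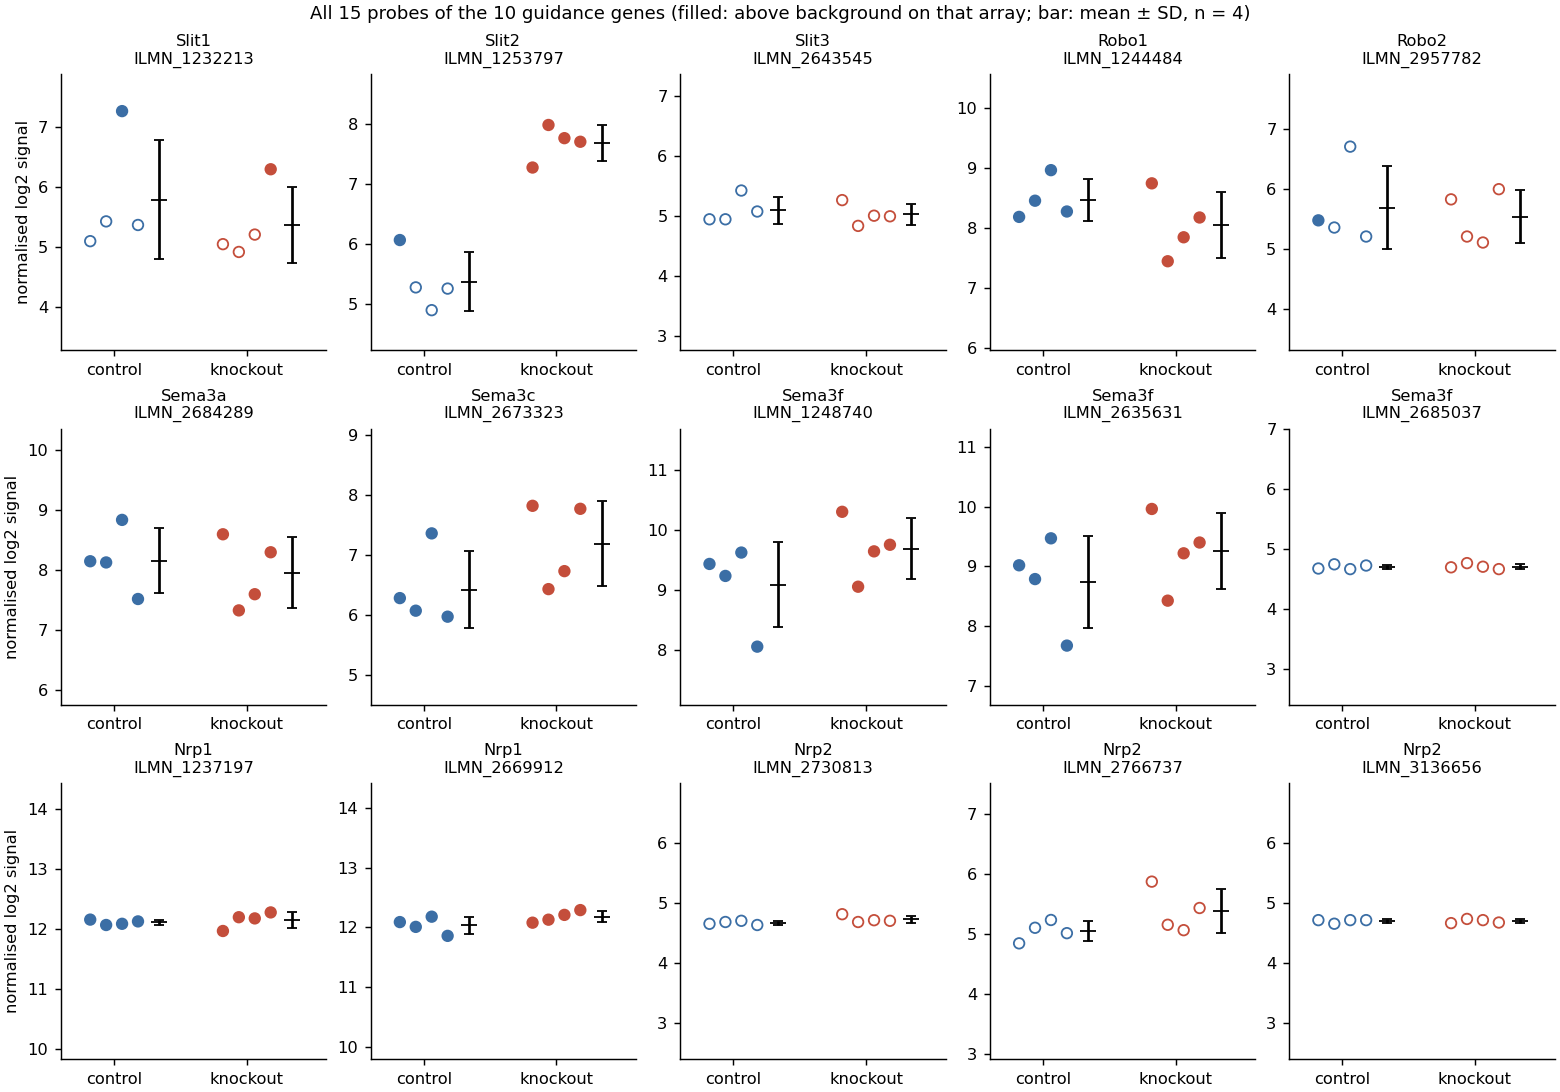
Normalised log2 signal (y axis) of all 15 probes of the 10 genes on the 4 control and 4 knockout arrays, with filled points above background, open points not above it, and bars for the mean ± SD. Each panel spans the same height on the log2 scale. Slit2 is the panel in which the knockout points, from 7.28 to 7.99, lie clear of the control points, from 4.90 to 6.07.

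Slit1, best known from the nervous system, was above background on knockout 4 (6.30) and control 3 (7.27) alone. Its other values lay between 4.92 and 5.43. Slit3, a ligand also found in vessels and muscle, was above background on no array, at 5.03 ± 0.18 in knockout and 5.10 ± 0.22 in control arrays (SD, n = 4 each). Neither was tested.

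Summed marker signals of other cells that these cultures could hold also differed between the groups, though few single markers passed the test. In the limma fit 0 of 7 kept mesothelial, 0 of 4 kept portal fibroblast and 1 of 7 kept myofibroblast genes had an adjusted p under 0.05. Of the stellate list 1 of 4 kept genes passed, and of the MHC class II and dendritic list 3 of 6, all lower in the knockout. Summed signals here are background-corrected and normalised. Those of the 8 mesothelial markers with a probe ranged from 13900 to 20100 in knockout and from 8840 to 13300 in control cultures. Those of 7 portal fibroblast markers ranged from 4470 to 6260 in knockout and from 2810 to 4340 in control cultures. The 7 myofibroblast markers summed to 46000 to 50600 in knockout and to 35100 to 40700 in control cultures. The groups did not overlap in any of these 3 sums. A sum of linear signals weighs its brightest genes most, so it does not tell how many markers of a list differed. The brightest mesothelial marker was Upk1b, at 13.25 in knockout and 12.51 in control cultures. The brightest portal fibroblast marker was Thy1, at 11.88 and 11.21, and neither gene passed. The myofibroblast gene that passed was Col1a2, a collagen gene, at 13.74 against 11.90. Timp1, an inhibitor of matrix proteases, had a difference of 0.74 without passing, while Acta2 (0.04), Col1a1 (0.06), Tagln (-0.27), Col3a1 (-0.21) and Lox (-0.47) had smaller or opposite ones. In the other direction, the stellate list summed to 2550 to 2940 in the knockout against 4300 to 5340. Reln was the stellate gene that passed, at 9.42 against 11.03. Des (-0.13), Ecm1 (-0.50) and Pdgfrb (-0.83) did not pass, and their groups overlapped. The MHC class II and dendritic list summed to 1320 to 2000 in the knockout against 14500 to 31500. Its genes that passed were H2-Aa, H2-Ab1 and H2-Eb1, while Flt3 and Xcr1 were above background on no array. Endothelial markers summed to 2660 to 5520 against 4960 to 8810, with Cdh5 and Kdr above background on no array. Macrophage markers summed to 36600 to 39600 against 38400 to 41200, and both the endothelial and the macrophage sums overlapped between the groups. Natural killer and T cell, hepatocyte, cholangiocyte and neural markers also had sums that overlapped, and Alb and Apoa1 were above background on no array. Knockout 1 had the highest mesothelial (20100) and portal fibroblast (6260) sums, the lowest myofibroblast sum (46000) and the lowest Slit2 value of its group. The controls differed from this for 2 of the lists. Control 1 had the highest portal fibroblast (4340) and lowest myofibroblast (35100) sums of its group, but the highest Slit2 value (6.07). Control 3 had the highest mesothelial sum (13300) and the lowest Slit2 value (4.90). Krt19 of the mesothelial and Gli1 of the portal fibroblast list were above background on no array. The part of these cells in the Slit2 difference was not tested.

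The 5 genes whose profile over the 8 arrays was nearest to that of Slit2 were Mfap5, Pstpip1, Ncapg2, Igfbp2 and Rab6b. Nearness was the root mean square difference of the mean-centred log2 values, 0.288 for Mfap5, a microfibril protein gene, 0.341 for Pstpip1, an adaptor of the actin cytoskeleton in blood cells, and 0.341 for Ncapg2, a condensin subunit gene. It was 0.478 for Igfbp2, an insulin-like growth factor binding protein gene, and 0.494 for the Golgi GTPase gene Rab6b, where the median over 8890 named probes was 1.29. All of them share the arrays and the gap between the groups with Slit2, and Ncapg2 also had its order of arrays within both groups. Mfap5, whose order differed, lay 0.69 above its mean on knockout 1, 1.66 on knockout 3 and 1.70 below it (-1.70) on control 3, while Slit2 lay at 0.75, 1.24 and -1.64. Of the other members, the nearest was Sema3f at 1.11 and the farthest Robo1 at 1.54.

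**Figure D2:**
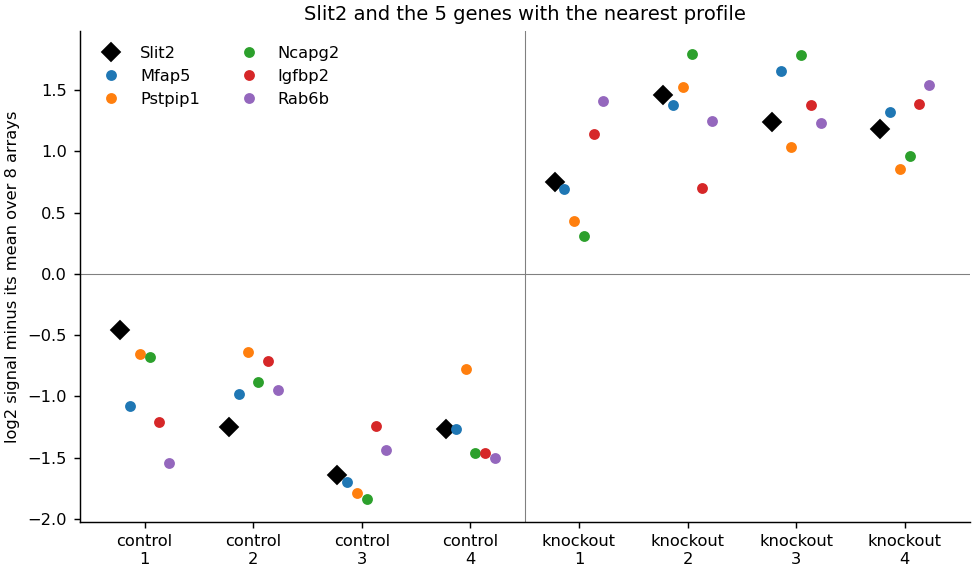
Log2 signal minus its mean over the 8 arrays (y axis) for Slit2 (diamonds) and the 5 genes with the nearest profile (circles), by array (x axis). All 6 genes lie below 0 on every control array and above 0 on every knockout array, and Slit2 runs from -1.64 on control 3 to 1.46 on knockout 2.

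Of the Slit receptors, Robo1 was above background on all 8 arrays and Robo2 on 1. Robo1 is the widely expressed Slit receptor, and Robo2 is known from axons and the developing kidney. The deposited signals of Robo1 were 326.7, 281.8, 323.6 and 314.2 on knockout 1 to 4 and 455.9, 478.5, 532.4 and 645.2 on control 1 to 4. They were lower in the knockout on every array, with means of 312 ± 20.5 and 528 ± 84.5 (SD, n = 4 each). After background correction and normalisation the values were 8.75, 7.45, 7.85 and 8.18 against 8.19, 8.46, 8.97 and 8.28, and the groups overlapped because of knockout 1. The difference was -0.42 on the log2 scale, with a 95% interval of -1.20 to 0.37. Robo2 was above background on control 1 alone, at 5.48, and its values ran from 5.11 to 6.0 in knockout and from 5.21 to 6.71 in control arrays.

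Among the class 3 semaphorins, Sema3a showed the same shift between signal and normalised value as Robo1. Sema3a, the prototype repellent of axons, acts through Nrp1. Its deposited signals were 301.9, 266.8, 287.0 and 334.4 in knockout and 447.3, 404.1, 485.0 and 446.4 in control arrays, again without overlap. Its normalised values were 8.60, 7.33, 7.6 and 8.30 against 8.15, 8.13, 8.84 and 7.52, with a difference of -0.20 and a 95% interval of -1.11 to 0.70. Robo1 and Sema3a were the 2 of 8 kept member probes whose deposited signals were lower without overlap in the knockout, where 10.2% of all kept probes were so, and 0 of 8 were higher without overlap, where 0.837% were. Part of this shift is common to the arrays. Without normalisation between them, the kept probes as a whole had a median difference of -0.40 on the log2 scale after background correction. In the same values Robo1 had a difference of -0.94 and Sema3a of -0.74, with the common shift still included.

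**Figure D3:**
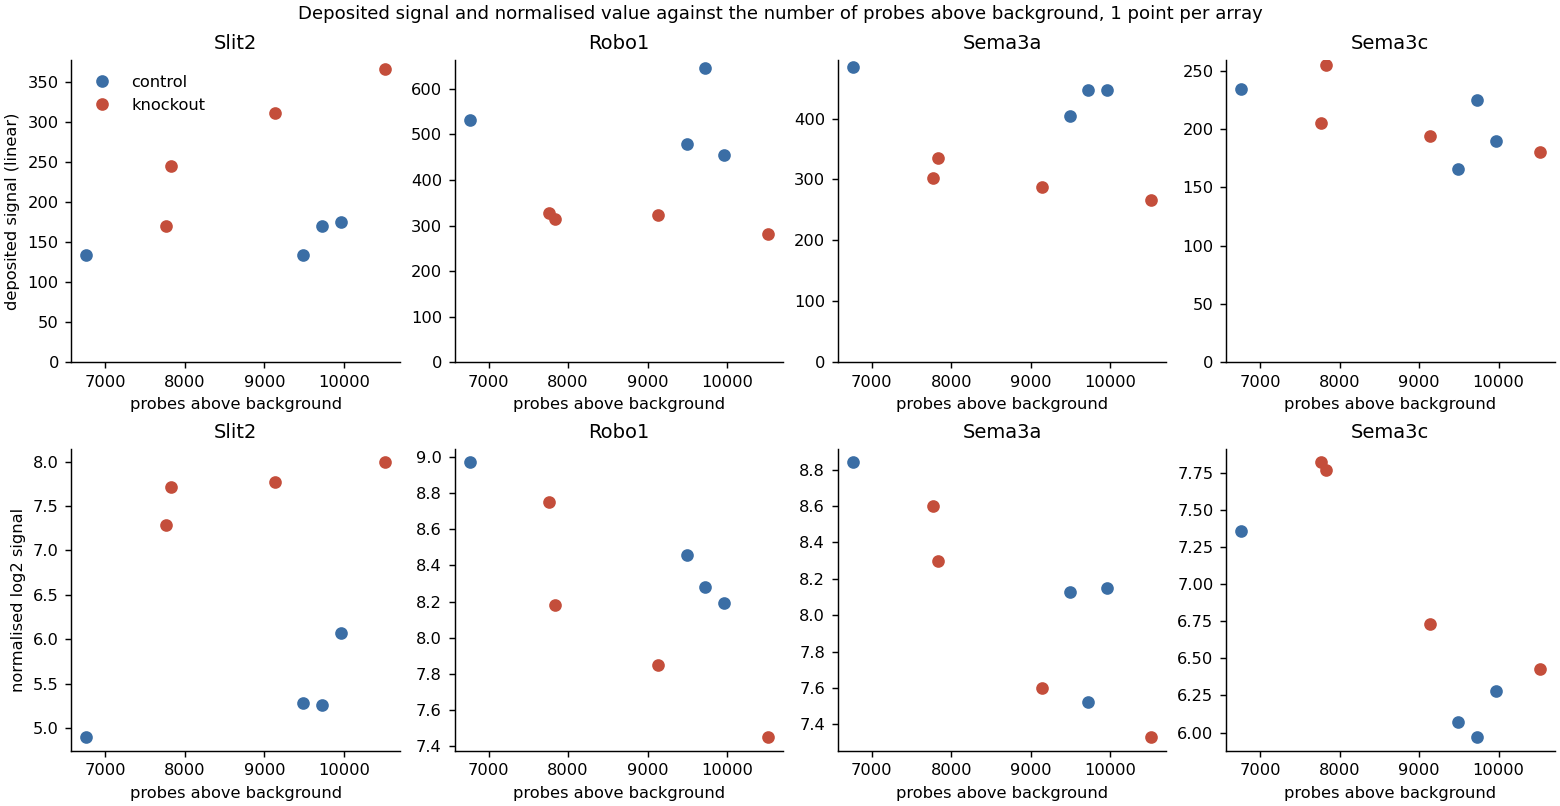
Deposited signal on a linear axis (top) and normalised log2 signal (bottom) of Slit2, Robo1, Sema3a and Sema3c against the number of probes above background on the array (x axis), with 1 point per array. The deposited signals of Robo1 and Sema3a are lower on every knockout array, and the normalised values of Robo1, Sema3a and Sema3c are highest in each group on knockout 1 and control 3.

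Sema3c, a semaphorin of vessel and heart development, lay at 7.82, 6.43, 6.73 and 7.77 on knockout 1 to 4 and at 6.28, 6.07, 7.36 and 5.97 on control 1 to 4. The groups overlapped through control 3, and the difference was 0.77 with a 95% interval of -0.26 to 1.80. Sema3f, a repellent that acts through Nrp2, had 3 probes. On ILMN_1248740 it lay at 10.30, 9.05, 9.64 and 9.75 in knockout and at 9.43, 9.23, 9.62 and 8.05 in control arrays, a difference of 0.60 with a 95% interval of -0.30 to 1.5. ILMN_2635631 gave a difference of 0.51, and ILMN_2685037 was above background on no array. The probes of Sema3f thus disagree on whether it was measured, and the 2 that were above background on all arrays moved together from array to array.

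The number of probes above background moved with these values inside the groups. Knockout 1, with 7765 such probes, had the highest knockout value of Robo1, Sema3a, Sema3c and both measured Sema3f probes, and knockout 2, with 10516, the lowest of each. Control 3, with 6760, had the highest control value of the same 5 probes. Slit2 ran the other way, with its lowest knockout value on knockout 1 (7.28) and its lowest control value on control 3 (4.90). When the number of probes above background entered the fit as a term, an alternative added with the data in view, the differences were 2.35 for Slit2, -0.47 for Robo1, -0.27 for Sema3a, 0.69 for Sema3c and 0.55 for Sema3f. Leaving out knockout 1, knockout 4 and control 3, likewise added with the data in view, gave 2.35, -0.66, -0.47, 0.48 and 0.44 for these probes in the same order.

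The neuropilins fell on either side of the background. Nrp1, the coreceptor of Sema3a and of VEGF-A, was above background on all 8 arrays with both of its probes. On ILMN_1237197 it lay at 11.97, 12.20, 12.18 and 12.28 in knockout and at 12.16, 12.07, 12.09 and 12.13 in control arrays, so that the groups overlapped. The difference was 0.05, with a 95% interval of -0.21 to 0.30, and on ILMN_2669912 it was 0.14, with an interval of -0.12 to 0.41. The sign of the first turned with cyclic loess (-0.02), and both turned with no normalisation between arrays (-0.16 and -0.07). The standard deviation within groups, 0.0975 and 0.114 for the 2 probes, was the smallest among the kept member probes, whose others had 0.407 to 0.701. The 2 Nrp1 probes were also the brightest of them, brighter than 94.4% and 94.3% of all kept probes. For the other kept member probes this share was 26.2% to 67.9%. Nrp2, the coreceptor of Sema3f and of VEGF-C, was above background on no array with any of its 3 probes, and its highest normalised value was 5.87 on knockout 1.

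**Figure D4:**
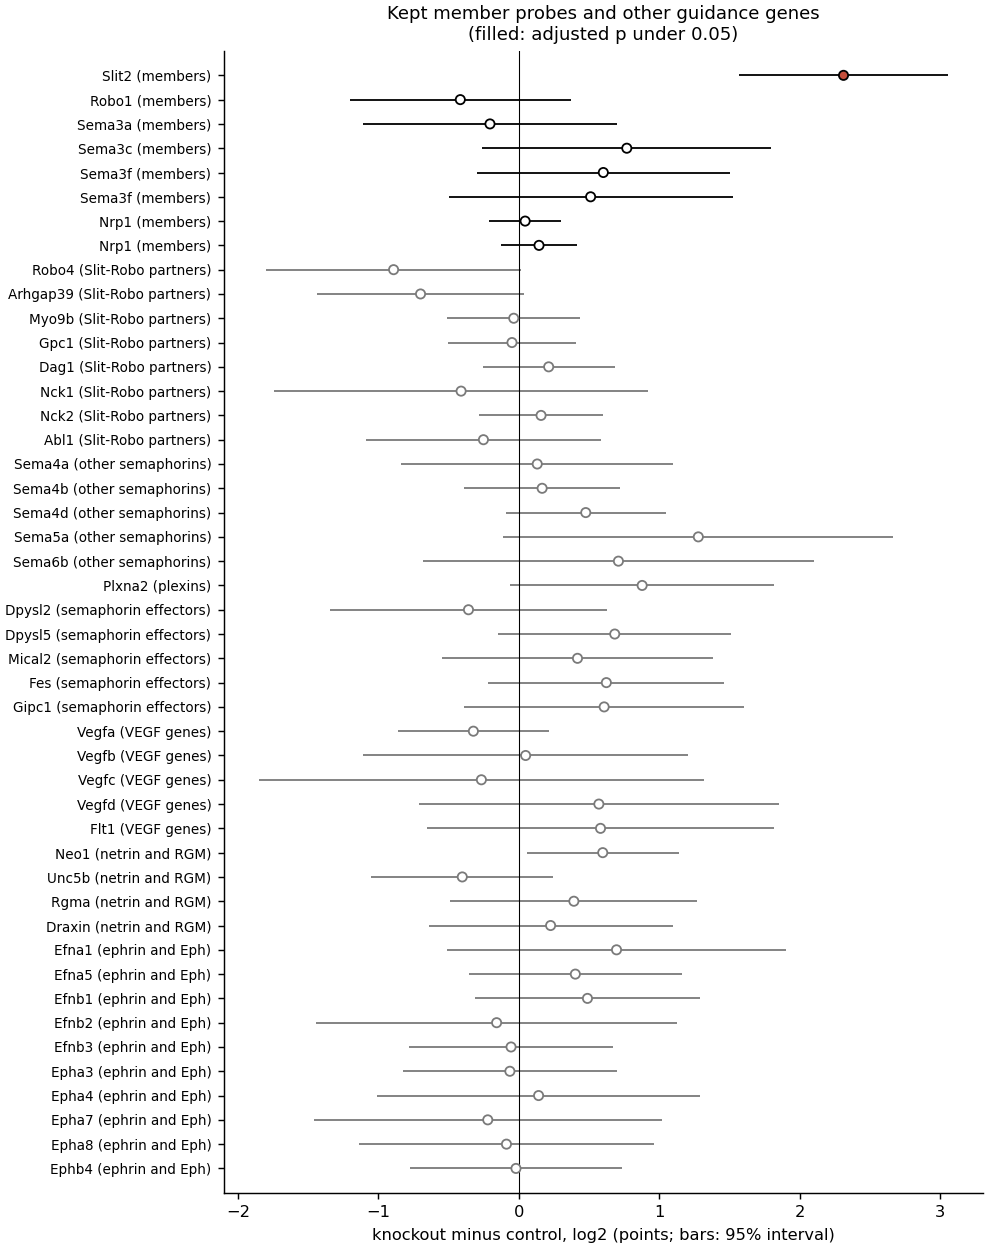
Knockout minus control on the log2 scale (x axis), with 95% intervals as bars, for the 8 kept probes of the 10 genes and for 38 other guidance genes grouped by family. Slit2, at 2.31, is the filled point with an adjusted p under 0.05, and the bars of the other members include 0.

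Other genes of the guidance pathways did not pass the test. Of 102 such genes listed, 90 had a probe and 38 were kept. With limma and Benjamini-Hochberg adjustment over all kept probes, 0 of the 38 rose and 0 fell, 1 had an unadjusted p under 0.05, where 6.31% of all kept probes did, and 22 of the 38 differences were above 0. Their median difference was 0.15, against 0.03 over all kept probes. The gene with the unadjusted p under 0.05 was Neo1, a receptor for netrins and repulsive guidance molecules. It lay at 9.43 ± 0.34 in knockout and 8.83 ± 0.08 in control arrays (SD, n = 4 each), with overlapping groups and a limma adjusted p of 0.656.

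In the Slit-Robo list, 8 of 14 genes were kept and 6 of the 8 had differences below 0. The endothelial receptor Robo4, which is also one of the endothelial markers above, lay at 7.91 ± 0.50 in knockout and 8.80 ± 0.66 in control arrays (SD, n = 4 each, limma adjusted p = 0.812), and its other kept probe gave a difference of -0.26. Arhgap39, whose fly relative binds Robo, had a difference of -0.70 (limma adjusted p = 0.835). The 2 kept genes of this list with differences above 0 were Dag1 and Nck2. Dag1, which encodes dystroglycan, a matrix receptor that also binds Slit, had a difference of 0.21, and Nck2, an adaptor of Robo signalling, 0.16.

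Of the other semaphorins, 5 of 17 were kept, and all 5 had differences above 0 with a median of 0.48. Sema5a, a membrane-bound semaphorin, lay at 8.21 ± 0.81 in knockout and 6.93 ± 1.13 in control arrays (SD, n = 4 each, limma adjusted p = 0.858), and its other kept probe gave a like difference of 1.25. Sema4d, an immune and vascular semaphorin, had a difference of 0.48 and was the only kept gene of all 7 lists whose normalised groups did not overlap, with a limma adjusted p of 0.909. That is 1 of 38 genes, where 3.12% of all kept probes were higher without overlap. The Sema4d probe was near background, above it on 3 knockout arrays and 1 control array. Its deposited signals overlapped, at 138.0 to 146.2 in knockout and 142.7 to 172.5 in control arrays. Sema6b had differences of 0.71, 0.64 and 0.01 on its 3 kept probes and Sema4b 0.17. Of the plexins, 1 of 9 was kept, Plxna2, which carries class 3 semaphorin signals with neuropilins, at 8.60 ± 0.51 in knockout and 7.72 ± 0.68 in control arrays (SD, n = 4 each, limma adjusted p = 0.841). Of the semaphorin effectors, 5 of 16 were kept, with a median difference of 0.61. Of these, 4 had differences above 0 and 1, Dpysl2, had -0.36. The tyrosine kinase gene Fes, which acts below plexin A, had 0.62, Dpysl5 of the collapsin response mediator family 0.68, and Mical2, an oxidase that takes actin filaments apart, 0.42. The kept probes of Gipc1, which binds the tail of Nrp1, disagreed. ILMN_2942573, above background on all arrays, had a difference of 0.61. ILMN_1225966, above background on 1 knockout array and 3 control arrays, had -0.55.

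The VEGF genes, which share the neuropilins, had 5 of 8 kept and a median difference of 0.05. The kept probes of Vegfa disagreed, with differences of -0.32 and 0.14. Its receptor gene Flt1 had a difference of 0.58, Vegfd of 0.57 and Vegfc of -0.27. Of the netrins, repulsive guidance molecules and their receptors, 4 of 16 were kept, and beside Neo1 these were Unc5b, a repulsive netrin receptor, at -0.40, Rgma at 0.39 and Draxin at 0.23. Of the ephrins and Eph receptors 10 of 22 were kept, with a median of -0.04, and the values with the smallest p were 0.49 for Efnb1, 0.70 for Efna1, 0.40 for Efna5 and -0.22 for Epha7.

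**Figure D5:**
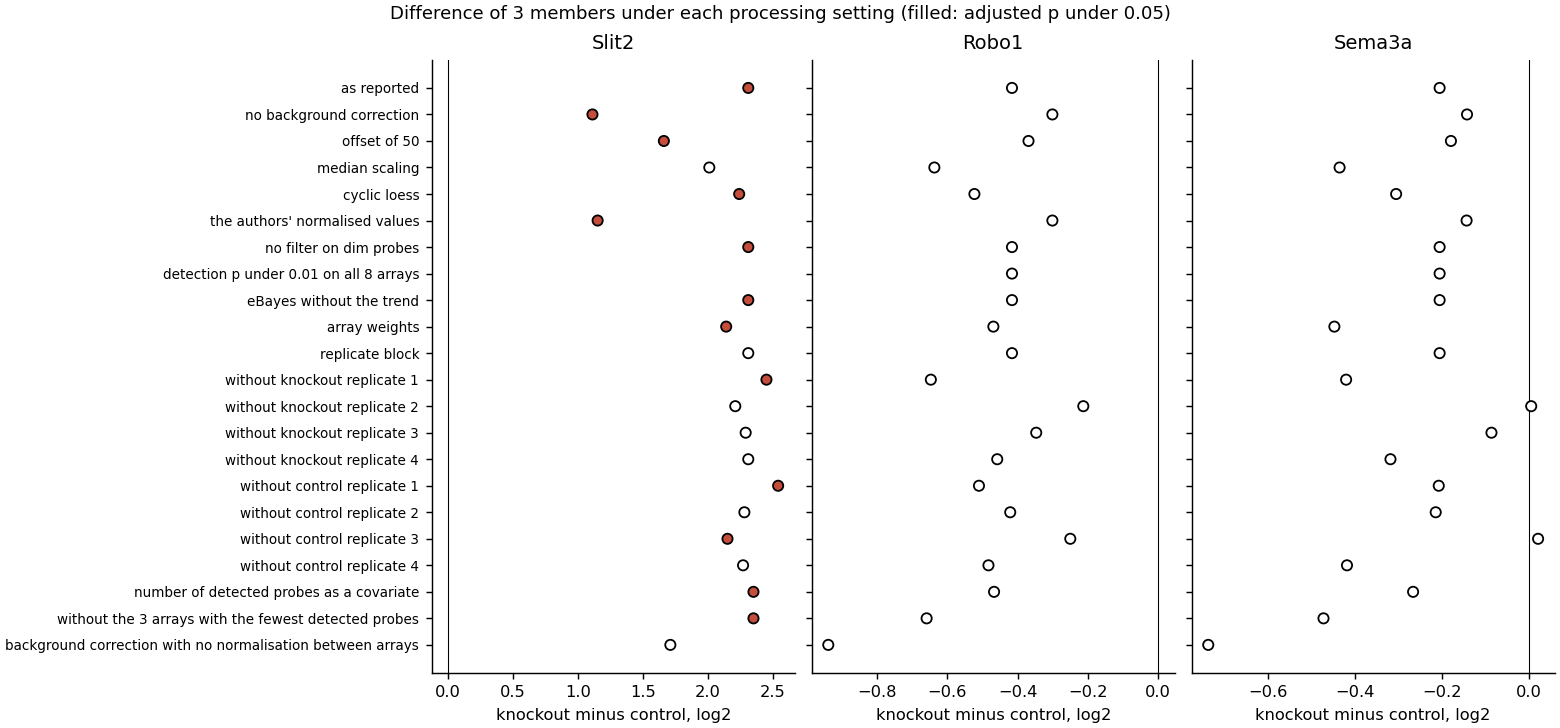
Knockout minus control on the log2 scale (x axis) for Slit2, Robo1 and Sema3a under each processing setting (y axis), with filled points where the adjusted p was under 0.05. Slit2 lies between 1.11 and 2.54 in all 20 alternatives that kept its probe, Robo1 between -0.94 and -0.21, and Sema3a crosses 0 without knockout 2 and without control 3.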

How the data were processed

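Total RNA of each of the 8 samples was hybridised to 1 Illumina MouseRef-8 v2.0 array. The deposited table gives, per the file headers, a mean bead signal per probe and array, an intensity that was not normalised, and a detection p-value, deposited beside it, against the negative-control beads. The authors read the scans with GenomeStudio (version 3 per the submitters' processing notes). Intensity after quantile normalisation by the authors is in a second table, per the series' design text. Groups and replicate numbers came from the titles. The platform annotation names 1 gene for 23978 of 25697 probes, several for 0, and 1719 are unnamed here.

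Signals were processed with neqc of limma 3.58.1 (R 4.3.3), with background moments from the detection p-values, an offset of 16, quantile normalisation and log2. The 9433 probes above background (detection p below 0.05) on 4 or more arrays were kept and fitted together in lmFit, then eBayes with its trend option, without covariates, with Benjamini-Hochberg adjustment and a threshold of 0.05. The offset draws folds of dim genes towards 1. A fold is 2 to the power of the difference of mean log2 values. Marker sums are background-corrected and quantile-normalised signals without the offset, with 1 probe per gene. In lists a gene has 1 probe, the kept probe with the highest mean. The fit was checked on simulated data with independent noise per probe, which lack the variation that the real arrays share. The number of arrays limits the precision.

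The members, lists and tests were chosen with earlier results of these data known. Named were all members, up to 4 genes per guidance list with the smallest p, Dpysl2, and the 5 genes nearest to Slit2. Alternatives left out the background correction, the filter or the eBayes trend, set the offset to 50, replaced quantile normalisation by median scaling or cyclic loess, took the authors' values, asked for a detection p below 0.01 on all 8 arrays, or used array weights (gene by gene, since the default estimate did not converge), the replicate number as a block, and each array was left out in turn. Others were added after the data were seen: a covariate, a fit without 3 arrays, and no normalisation between arrays.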

Additional observations from a re-analysis of the deposited data

Results flagged for a closer look

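In each group of 4 arrays, the highest or lowest value of the 15 member probes and of the named guidance genes was set against the other 3. Of 80 such groups, 6 held a value apart from the rest, where chance gives about 1 in 20. Slit1 lay at 7.27 on control 3, the other controls between 5.10 and 5.43. Nrp2 on ILMN_3136656, below background throughout, lay at 4.65 on control 2 and at 4.71 on each of the other controls. Control 3, the array with the fewest probes above background, also had values apart for Vegfd (5.41, not above background, others from 6.85 to 7.07), Neo1 (8.95, others from 8.79 to 8.80) and Efna5 (10.88, others from 9.85 to 9.99). Neo1 on knockout 1 lay at 8.92, the other knockouts between 9.55 and 9.66.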

How the results depend on the processing

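The count of probes past the threshold, 50 as reported (22 higher and 28 lower), was 108 with median scaling (60 and 48), 95 with cyclic loess (52 and 43), 17 under the strict detection filter (below 0.01 on all arrays), 805 with array weights, 3 with the replicate block, 670 with detected probes per array as a covariate, 169 without the 3 arrays lowest in detected probes, 82 with no normalisation between arrays, and 22 to 123 with single arrays left out. Of the member probes, 1 passed as reported, and 0 with median scaling, under the strict detection filter (which dropped the Slit2 probe), with the replicate block or with no normalisation between arrays, and 0 to 1 with single arrays left out. The Slit2 difference kept its sign in all 20 alternatives that held its probe, from 1.11 without background correction to 2.54 without control 1. Its limma adjusted p was under 0.05 in 12 of them, and went up to 0.363 under the block. Slit2 was picked with this contrast known, and these are refits of the same arrays, so the kept sign lends it no support. Other guidance genes past the threshold numbered 0 as reported, 5 with array weights (Robo4, Sema5a, Plxna2, Fes and Neo1, at -1.29, 1.12, 0.82, 0.79 and 0.81) and 3 with the covariate (Sema5a, Plxna2 and Fes, at 1.14, 0.81 and 0.69). Named guidance genes that changed sign were Draxin (-0.00802 with median scaling, -0.0357 without knockout 1, -0.00345 without the 3 arrays), Epha7 (0.0707 without knockout 2, 0.234 without control 3) and Vegfc (0.182 without control 4). With single arrays left out, Draxin ranged from -0.0357 to 0.449, Epha7 from -0.504 to 0.234 and Vegfc from -1.02 to 0.182. With no normalisation between arrays, where the median of all kept probes moved from 0.033 to -0.40, Dag1 (-0.10), Nck2 (-0.163), Sema4d (-0.051), Sema4b (-0.241), Mical2 (-0.0883), Vegfd (-0.0964), Rgma (-0.151) and Draxin (-0.31) did. Of the members, Nrp1 changed sign on ILMN_1237197 (-0.0192 with cyclic loess, -0.163 with no normalisation between arrays) and on ILMN_2669912 (-0.0715 with no normalisation between arrays), and Sema3a did without knockout 2 (0.00558) and without control 3 (0.0214). Median scaling moved that median to -0.099. The cause of these changes was not tested. Same-numbered samples share only a number: their deviations from the group means correlated at -0.658, 0.597, -0.746 and -0.815, and none correlated best with its own number. Signals near background, as for Slit1, Slit3, Robo2 and Nrp2, limit what the arrays could show.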
